A study of Mus musculus with 4 samples.

Results

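The matrix metalloproteases (Mmp genes), the ADAMTS proteases and the tissue inhibitors of metalloproteases (Timp genes) were compared between CD45-negative cells of the mouse mesenteric lymph node (mLN), the node that drains the gut, and those of the peripheral lymph node (pLN). Members were all array probes other than controls whose gene name is Mmp, Adamts or Timp followed by a number, with a or b allowed after an Mmp number. This found 72 of 41174 probes and 43 of 27597 named genes: 21 Mmp, 18 Adamts and 4 Timp genes. Both groups came from wild-type C57BL/6NCrl mice with no treatment named. The nodes were digested with collagenase, and cells without CD45, the surface protein of leukocytes, were isolated with magnetic beads. Their mean purity was stated as 97.4% ± 2.0 (SD) in mLN and 97.5% ± 2.2 in pLN. Each of 2 experiments supplied 1 mLN and 1 pLN sample for 1-colour arrays, so each node had 2 arrays. The age and number of the mice, the peripheral nodes taken and whether the experiments used separate animals are not given in the sources used here, so the p-values reflect only how far these samples varied, which may be technical.

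MMPs are zinc-dependent proteases that are made as inactive precursors and, once cleaved, cut collagens, other matrix proteins and many signalling proteins outside the cell. ADAMTS proteases share this catalytic chemistry, carry thrombospondin repeats, and cut proteoglycans, procollagens and other large secreted proteins. TIMPs bind the active site of MMPs and block it, and TIMP3 also blocks several ADAMTS enzymes. In lymph nodes, fibroblastic reticular cells lay down and wrap a network of collagen fibres through which lymph-borne molecules travel, and matrix proteases act on such networks when a node remodels.

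The 75th percentile of the processed signal was 1741.4 and 1730.3 on the mLN arrays and 1733.5 and 1686.2 on the pLN arrays. Levels are given as log2 signal minus the 75th percentile of the same array, differences as mLN minus pLN on the same scale, and levels of different genes are not compared, since probes differ in brightness. Of the 43 genes, 39 passed the filter on dim signals (both arrays of mLN or of pLN well above background) and were tested. Mmp1a, Mmp12 (macrophage elastase), Mmp20 (an enamel protease) and Adamts13 (which cuts von Willebrand factor) did not pass it. No member spot was saturated. The 10 markers of fibroblastic reticular cells were all tested and none passed in limma, with 1 at an unadjusted p below 0.05, and their summed signal was 1040 and 1180 times the 75th percentile in mLN, against 932 and 1040 times in pLN. Summed leukocyte markers reached 0.941 and 1.03 times in mLN, against 1.12 and 0.881 times in pLN.

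Markers of several other cells differed between the nodes. Of 11 mesothelial markers 6 passed as higher in mLN and 3 had a negative difference, among them Cdh1 (-1.90 and -3.45 in the experiments, not passing). The 11 summed to 70.8 and 53.9 times the 75th percentile in mLN against 31.7 and 33.0 times in pLN. Without Gpm6a, which was 23.4 and 19.3 times in mLN and 21.8 and 21.0 times in pLN, the sums were 47.4 and 34.6 against 9.91 and 11.9 times. All 11 pancreatic acinar markers had ratios above 2-fold toward mLN in each experiment (1 passed), with sums of 890 and 303 times in mLN against 16.4 and 1.69 times in pLN. Of 11 macrophage markers tested only Marco, a scavenger receptor, passed (higher), at 56.5 and 50.1 times in mLN against 5.27 and 5.67 times in pLN. The other 11 markers on the array summed to 10.4 and 9.15 times in mLN against 13.6 and 10.0 times in pLN. Of 11 neutrophil markers none passed by limma and 7 had an unadjusted p below 0.05, all lower in mLN. Their summed signal was 3.65 and 1.96 times in mLN against 12.4 and 7.19 times in pLN. Of 10 mammary and glandular epithelial markers 2 passed as higher and 2 as lower, with sums of 5.07 and 4.57 times in mLN against 6.74 and 14.4 times in pLN (5.04 and 4.54 against 4.42 and 7.31 times without the casein gene Csn3). Of 7 smooth muscle and pericyte markers none passed in limma, with 3 higher and 1 lower in mLN at an unadjusted p below 0.05. They summed to 169 and 169 times in mLN against 103 and 124 times in pLN. Of 9 endothelial markers none passed, with 2 higher and 3 lower at that mark. They summed to 200 and 319 against 308 and 337 times (83.9 and 79.0 against 82.1 and 73.9 times without Glycam1). In bulk samples like these, fewer cells of a type and less RNA per cell cannot be told apart. The part of these cells in the results that follow was not tested.

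The sequences of 7 probes are shown because they carry the largest differences or stand for a class. Each line gives the first 30 of the probe's 60 bases, 5′ to 3′ in the sense of the transcript, as the array files list them. Positions of the whole probe are those of the files, on mouse build mm8: Mmp13 chr9:7282762-7282821 (plus strand), Mmp8 chr9:7568238-7568297 (plus), Mmp9 chr2:164646008-164646067 (plus), Mmp3 chr9:7455751-7455810 (plus), Mmp16 chr4:18044343-18044402 (plus), Adamts8 chr9:30712200-30712259 (plus) and Adamts16 chr13:71195642-71195701 (minus).
Mmp13: tcattactcaaggctatgcacactggtaga
Mmp8: tttattctgaggagatttgggaagaatcag
Mmp9: tctggcgtgtgagtttccaaaatgaggtga
Mmp3: ctttgtgaaaggaagtgctttgttcagcat
Mmp16: tttataaggatctgttactctttaatacat
Adamts8: tgttggcagtgaacgccaaagcaagctcca
Adamts16: gatgggggctatgatatagggctttgcata
The longest run of bases that probes of 2 different members had in common was 11 (Adamts18 and Adamts1), so no member probe repeats another's sequence.

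One member passed the test between the nodes. Mmp16 was higher in mLN (limma adjusted p = 0.0326), which is 1 of 39 members, beside 1.05% of all 21392 genes tested (224 genes). Among all genes, 165 (0.771%) were higher and 59 (0.276%) lower in mLN. An unadjusted p below 0.05 was found for 18 members, 11 higher and 7 lower in mLN, beside 14.7% of all genes. Both experiments gave ratios of 2-fold or more in the same direction for 9 members, beside 4.45% of all genes. Adamts8, Mmp16, Adamts16 and Adamts19 were higher in mLN (4 members, beside 2.75% of genes), and Mmp13, Mmp8, Mmp3, Timp4 and Mmp28 lower (5 members, beside 1.71% of genes). Mmp8 was not well above background on 1 mLN array, and Adamts19 on neither pLN array. With a filter on all 4 arrays, which drops both, 7 members met this mark. With normexp, another background correction, 4 members met it. That setting started from the raw spot signal, without the trend removal of the processed signal, and moved the median of all genes by 0.42. Without pLN replicate 1 or without pLN replicate 2 the number of genes that passed in limma was 0 on the whole array (1877 and 2297 at an unadjusted p below 0.05), so every call in the text ended there.

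**Figure D1:**
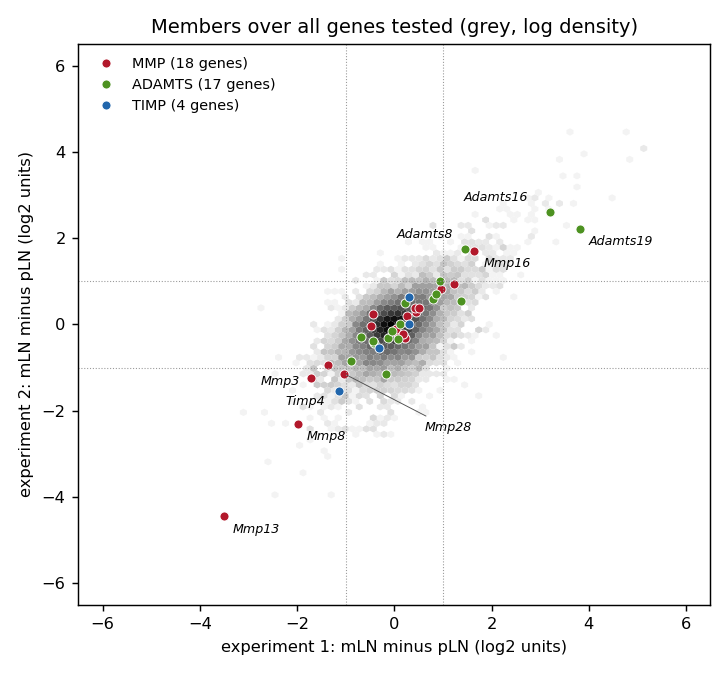
Difference mLN minus pLN (log2 units) in experiment 1 (horizontal) against experiment 2 (vertical), 1 array per node in each, with all 21392 tested genes as grey density (darker is more genes, log scale; genes beyond the axes are not drawn) and the 39 tested members as coloured points. Dotted lines mark 2-fold, and the 9 named members lie outside them in both experiments, with Mmp13 at -3.51 and -4.45 and Adamts19 at 3.81 and 2.21.

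Members went in both directions. The fitted difference was positive for 18 and negative for 21 members, and its median was -0.04, against -0.03 over all genes tested. Their sizes were larger: the median absolute difference was 0.46 for the members, against 0.19 for all genes, and it was at least 1 (2-fold) for 11 of 39 members (28.2%), against 7.11% of all genes. The Mmp genes gave 7 of these 11 (of 18 tested), the Adamts genes 3 (of 17) and the Timp genes 1 (of 4). These are descriptions of the families with no test over the members.

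**Figure D2:**
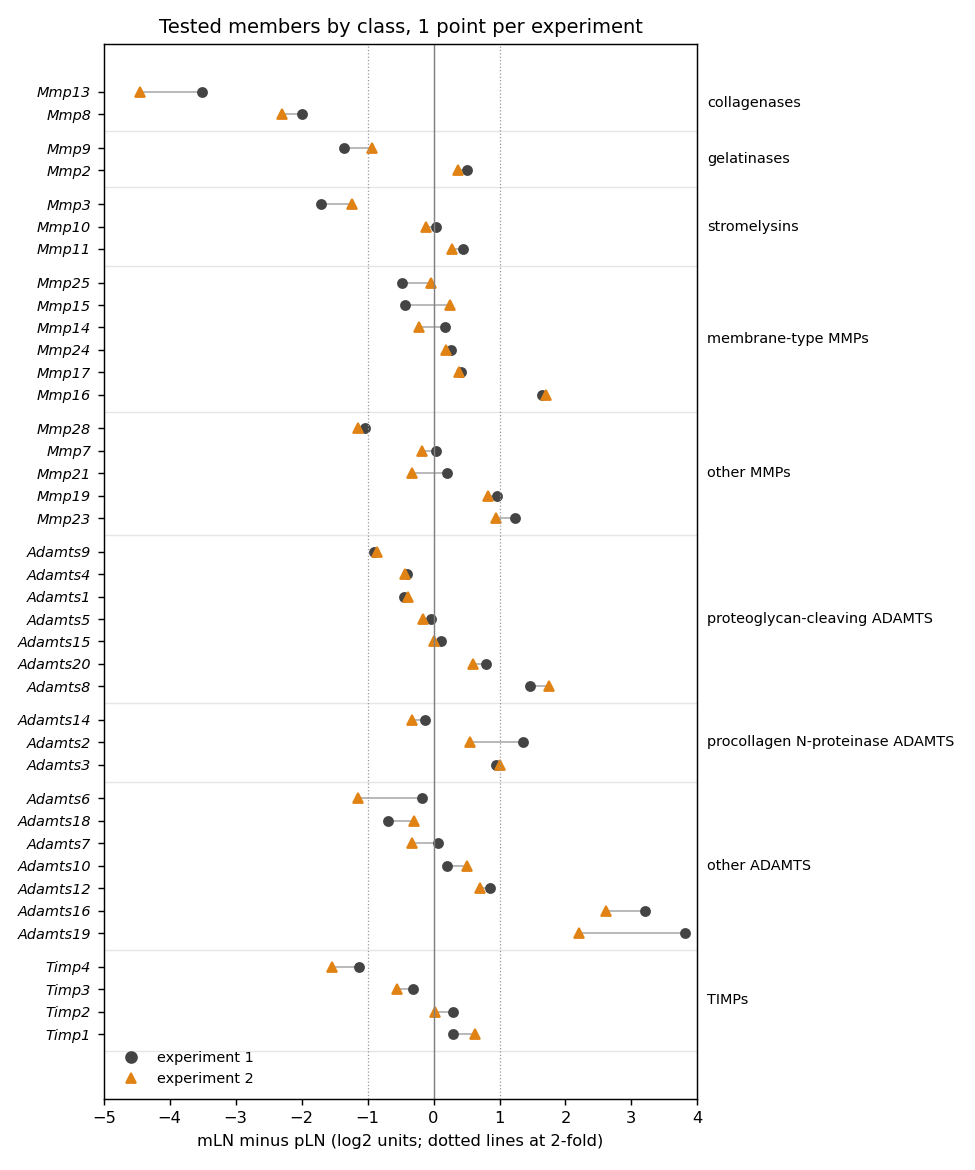
Difference mLN minus pLN (log2 units) of each tested member in experiment 1 (circle) and experiment 2 (triangle), 1 array per node in each, grouped by class. Dotted lines mark 2-fold; both collagenases lie left of the lower line in both experiments (with normexp, Mmp8 turned to 1.33), while the Timp genes run from Timp4 at -1.13 and -1.54 to Timp1 at 0.29 and 0.63.

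The collagenases, which make the first cut through the triple helix of fibrillar collagen, were both lower in mLN, though neither passed and Mmp8 turned to 1.33 with normexp. Mmp13, collagenase 3, had log2 levels of -4.56 and -5.97 in mLN, against -1.05 and -1.52 in pLN. Both mLN arrays lay far below both pLN arrays. The fitted difference was -3.98 ± 0.52 (SE, n = 2 arrays per node), a 15.8-fold lower signal, with a limma adjusted p of 0.0692. With the experiment as a block Mmp13 passed (limma adjusted p = 0.0292), and without mLN replicate 1 (0.0380), where mLN is a single array assumed to vary like the pLN arrays. It did not pass without mLN replicate 2 (0.0508), pLN replicate 1 (0.320) or pLN replicate 2 (0.262). Mmp13 had the most negative of the 39 differences, and -1.17 with normexp.

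Mmp8, the collagenase known from neutrophil granules, had log2 levels of -6.83 and -8.56 in mLN, against -4.84 and -6.26 in pLN. Both mLN arrays lay below both pLN arrays, the mLN array of experiment 1 only a little below the lower pLN array, and the probe was not well above background on the mLN array of experiment 2. The fitted difference was -2.15 ± 0.77 (SE, n = 2, limma adjusted p = 0.323). With that array raised to the lowest signal well above background on it, the signal was 2.18-fold lower in mLN, which is not a strict limit. The block took it past the threshold (adjusted p = 0.0320), and the fit without mLN replicate 1 gave -3.01 and that without mLN replicate 2 gave -1.28. The median of the 2 tested collagenases was -3.07 (-2.75 in experiment 1 and -3.38 in experiment 2), and -2.55 with Mmp8 at its bound. The third collagenase on the array, Mmp1a, was well above background on only 2 of 4 arrays with 1 of its probes, an mLN and a pLN array.

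The gelatinases, which cut denatured collagen and basement membrane collagen, went in opposite directions. Mmp9 had log2 levels of -0.43 and -0.41 in mLN, against 0.93 and 0.53 in pLN. The groups did not overlap, and the fitted difference was -1.15 ± 0.19 (SE, n = 2, limma adjusted p = 0.105), which did not pass. A second Mmp9 probe, printed at 10 spots on each array, gave -1.38, and its spots had an SD of 0.0434 to 0.0727 log2 units within an array. Mmp2, the gelatinase of fibroblasts, had levels of 3.55 and 3.32 in mLN, against 3.05 and 2.95 in pLN (0.44 ± 0.16, adjusted p = 0.324). Mmp9 is also a neutrophil granule protein. Of the 11 neutrophil markers, 5 had ratios of 2-fold or more toward pLN in each experiment: S100a8, S100a9, Ltf, Csf3r and Cxcr2. Ltf is also among the mammary and glandular markers. On neither mLN array was Csf3r, the receptor for granulocyte colony-stimulating factor, well above background. Elane, Mpo and Lcn2 were lower in mLN in both experiments, but not by 2-fold in each. The sign turned between experiments 1 and 2 for Ngp (1.81 and -3.78), Camp (2.28 and -3.97) and Retnlg (-0.53 and 0.69). The part of neutrophils in the Mmp8 and Mmp9 differences was not tested.

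Of the stromelysins, which cut proteoglycans and other matrix proteins and can activate precursors of other MMPs, only Mmp3 differed by more than 2-fold. Mmp3, stromelysin 1, had log2 levels of 2.93 and 3.26 in mLN, against 4.64 and 4.50 in pLN. Every pLN array lay above every mLN array, and the fitted difference of -1.47 ± 0.18 (SE, n = 2) missed the threshold, with a limma adjusted p of 0.0603. Mmp10, stromelysin 2, differed by -0.04 ± 0.14 (adjusted p = 0.947) and by 1.43 with normexp. Mmp11, which is made active inside the secretory pathway, differed by 0.36 ± 0.14 (adjusted p = 0.356). The median of the 3 was -0.04.

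**Figure D3:**
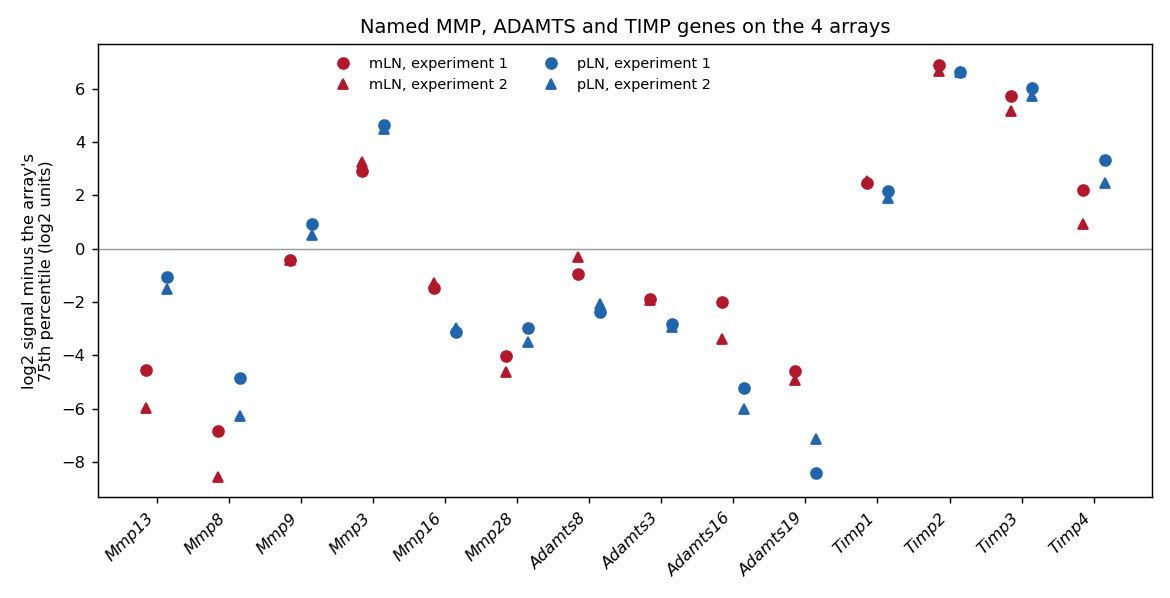
Log2 signal minus the array's 75th percentile (log2 units) of the 14 named members, in mLN (red, left of each pair) and pLN (blue, right), with circles for experiment 1 and triangles for experiment 2. Each point is 1 array. The mLN points lie below the pLN points for Mmp13, Mmp8, Mmp9, Mmp3, Mmp28, Timp3 and Timp4. They lie above them for Mmp16, Adamts8, Adamts3, Adamts16, Adamts19, Timp1 and Timp2, by little for Timp2. With normexp, Mmp8, Mmp28 and Timp2 turned to 1.33, 0.62 and -0.19. The share of all genes with points so apart was not counted.

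The 3 Mmp genes with the most negative differences share a chromosome region. The 8 Mmp genes Mmp13, Mmp12, Mmp3, Mmp1a, Mmp10, Mmp8, Mmp20 and Mmp7 lie in this order on chromosome 9, with probes that span 415 kb on mm8. Within the run, Mmp13 (-3.98), Mmp3 (-1.47) and Mmp8 (-2.15) were lower in mLN without passing. Mmp10 (-0.04) and Mmp7, matrilysin (-0.07), had differences smaller than their standard errors of 0.14 and 0.30. With normexp, Mmp8, Mmp10 and Mmp7 all moved up, to 1.33, 1.43 and 1.45, while Mmp13 and Mmp3 stayed negative (-1.17 and -1.77). Mmp10 lies between Mmp3 and Mmp8. Of the neighbouring members elsewhere, Adamts8 (1.61) has Adamts15 (0.06) at 63 kb on the same chromosome, and Adamts1 (-0.41) has Adamts5 (-0.10) at 68 kb on chromosome 16.

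**Figure D4:**
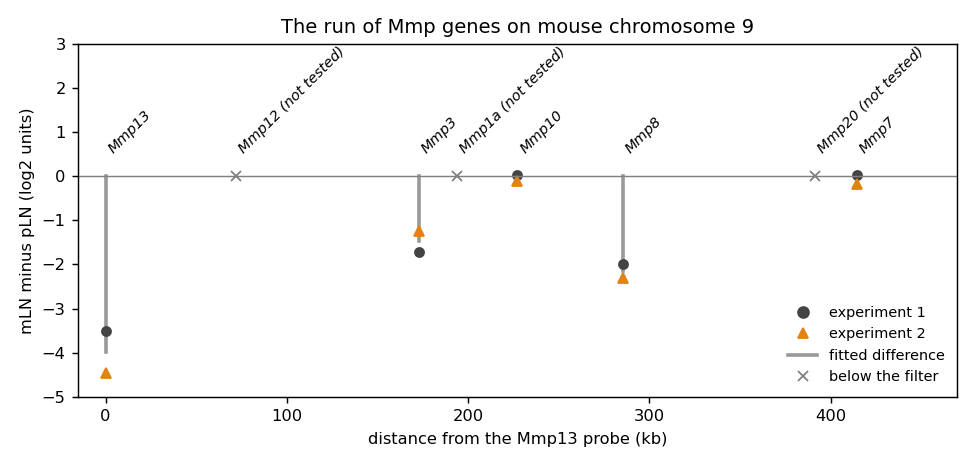
Difference mLN minus pLN (log2 units) of the 8 Mmp genes on chromosome 9, placed by the distance of their probes from the Mmp13 probe (kb, mm8). Bars are the fitted difference, circles experiment 1 and triangles experiment 2, and crosses are genes not tested. Mmp13, Mmp3 and Mmp8 lie below 0, while Mmp10 and Mmp7 between or beside them lie near 0. With normexp, Mmp8, Mmp10 and Mmp7 moved to 1.33, 1.43 and 1.45.

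Promoters of this run are shown because members with large and with small differences carry the same short word in them. RefSeq promoters (GRCm38.p6, 250 bases before and 50 after each start site) were matched for 29 of the 43 members. Mmp16, Adamts8, Adamts16, Adamts19, Mmp2 and Mmp9 were among those without a match, so the word was not looked for in them. The 7-base word TGAGTCA, or TGACTCA on the other strand, which the transcription factor AP-1 binds, was found in 6 of the 8 genes of the run and in 0 of the 21 other members matched, against 5.95% of all 27025 genes with a promoter (5.2% of 32851 promoters). The 250 bases before the start of 3 of them follow, all on the plus strand, with the word in capitals: Mmp13 (chr9:7272264-7272513), Mmp3 (chr9:7445572-7445821) and Mmp10 (chr9:7502092-7502341).
Mmp13: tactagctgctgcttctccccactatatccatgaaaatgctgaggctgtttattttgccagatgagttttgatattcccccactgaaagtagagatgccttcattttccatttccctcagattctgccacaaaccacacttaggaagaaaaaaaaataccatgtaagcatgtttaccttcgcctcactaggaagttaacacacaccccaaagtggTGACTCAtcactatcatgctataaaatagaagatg
Mmp3: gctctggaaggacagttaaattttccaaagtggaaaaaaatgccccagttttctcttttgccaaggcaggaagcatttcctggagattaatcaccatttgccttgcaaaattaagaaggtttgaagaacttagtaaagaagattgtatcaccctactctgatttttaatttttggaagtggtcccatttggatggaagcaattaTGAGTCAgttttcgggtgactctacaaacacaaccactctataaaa
Mmp10: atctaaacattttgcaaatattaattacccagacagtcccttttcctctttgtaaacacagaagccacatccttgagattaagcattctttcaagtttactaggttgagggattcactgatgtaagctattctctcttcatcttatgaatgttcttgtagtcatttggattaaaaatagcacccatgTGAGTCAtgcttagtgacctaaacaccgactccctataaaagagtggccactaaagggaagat
The word began 35 bases before the start in Mmp13, 46 in Mmp3 and 63 in Mmp10. It stood 73 bases before the start in Mmp1a, and in 1 of 2 listed promoters each of Mmp12 (44 bases before) and Mmp7 (63). Mmp13 and Mmp3, which were lower in mLN in both experiments, thus held it. Mmp10, which differed by -0.04 (1.43 with normexp), held it too, and Mmp8 did not. A match of letters is a description and not a binding site.

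The membrane-type MMPs sit on the cell surface and cut matrix at the cell's edge. Mmp16, membrane-type 3 MMP, which can activate the precursor of Mmp2, rose in mLN. It had log2 levels of -1.47 and -1.28 in mLN, against -3.11 and -2.98 in pLN. The 2 arrays of each node lay close together and the nodes far apart. The fitted difference was 1.67 ± 0.15 (SE, n = 2), a 3.19-fold higher signal, with the limma adjusted p given above (0.0326). The call ended when any array was left out, with adjusted p of 0.0691 without mLN replicate 1, 0.0767 without mLN replicate 2, 0.212 without pLN replicate 1 and 0.207 without pLN replicate 2, at differences of 1.58 to 1.76. It also ended with no filter on dim probes (0.102) and with normexp (0.690). A second Mmp16 probe was dim, at -5.82 and -6.77 in mLN against -9.25 and -7.29 in pLN, and well above background only on the mLN array of experiment 1, so the call rests on 1 probe.

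The other 5 membrane-type genes lay between -0.26 ± 0.26 (Mmp25) and 0.40 ± 0.16 (Mmp17), and none of them passed in limma or had an unadjusted p below 0.05. With normexp, Mmp25 and Mmp24 moved to 1.60 and 1.52. Mmp14, membrane-type 1 MMP and a collagenase of fibroblasts, differed by -0.02 ± 0.17 (adjusted p = 0.978), with levels of 3.82 and 3.70 in mLN against 3.64 and 3.92 in pLN. The class median was 0.10, and 0.22 in each experiment.

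Among the other MMPs, Mmp28, epilysin, had the lowest difference and Mmp23 the highest, of equal size. Mmp28 had levels of -4.01 and -4.64 in mLN, against -2.97 and -3.50 in pLN. The groups did not overlap, and the difference of -1.09 ± 0.31 (SE, n = 2, limma adjusted p = 0.232) did not pass and turned to 0.62 with the normexp background. Mmp23, a membrane-anchored MMP of unusual structure, had 3.97 and 4.01 in mLN against 2.74 and 3.07 in pLN (1.09 ± 0.17, adjusted p = 0.103). Mmp19 differed by 0.90 ± 0.26 (adjusted p = 0.243), Mmp21 by -0.06 ± 0.19 and Mmp7 by -0.07 ± 0.30. With normexp, Mmp21 and Mmp7 moved to 1.65 and 1.45. The class median was -0.06.

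None of the 17 tested ADAMTS genes passed, and 8 had an unadjusted p below 0.05 in limma, 6 higher and 2 lower in mLN. The 7 proteoglycan-cleaving members, which cut aggrecan and versican, had a median of -0.10. Adamts8 had levels of -0.93 and -0.31 in mLN, against -2.39 and -2.06 in pLN. Both mLN arrays were above both pLN arrays, at 1.61 ± 0.27 (SE, n = 2, limma adjusted p = 0.108), and a second probe that adjoins the first gave 1.52. Adamts9, at 0.78 and 0.68 in mLN against 1.68 and 1.54 in pLN, differed the other way (-0.88 ± 0.14, adjusted p = 0.105), with -0.55 and -0.19 from its other probes. The aggrecanases Adamts4 and Adamts5 differed by -0.42 ± 0.18 and -0.10 ± 0.14, Adamts1 by -0.41 ± 0.21, Adamts15 by 0.06 ± 0.27 and Adamts20 by 0.69 ± 0.38.

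The procollagen N-proteinases trim the amino end of procollagens so that fibrils can form. Adamts2 and Adamts3 were higher in mLN without passing, and the class median was 0.95 (0.94 and 0.55 in the experiments). Adamts3 had levels of -1.89 and -1.92 in mLN, against -2.83 and -2.93 in pLN. Arrays of a node nearly coincided, at 0.97 ± 0.14 (SE, n = 2, limma adjusted p = 0.0807), but its 3 probes gave 0.97, 0.74 and -0.30. Adamts2 differed by 0.95 ± 0.30 (adjusted p = 0.275), and its 4 probes gave 0.14 to 0.95, all positive. Adamts14 was at -0.23 ± 0.15.

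The remaining ADAMTS genes held the highest differences of all members. Adamts16 had levels of -2.00 and -3.39 in mLN, against -5.21 and -6.00 in pLN. The groups were far apart, yet the mLN arrays also differed from each other by over 1 log2 unit. The difference was 2.91 ± 0.56 (SE, n = 2, limma adjusted p = 0.13), it passed with the experiment as a block (0.0304), and it was 2.22 without mLN replicate 1 and 3.61 without mLN replicate 2. A second Adamts16 probe gave 0.47, with 1.31 in experiment 1 and -0.37 in experiment 2.

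Adamts19 had levels of -4.60 and -4.93 in mLN, against -8.41 and -7.14 in pLN, where neither array was well above background. With both pLN arrays raised to the lowest signal well above background on each, its signal was 4.23-fold higher in mLN. The fitted difference was 3.01 ± 0.46 (limma adjusted p = 0.0945), and a second probe gave 3.1. In the authors' deposited table both pLN values are set to its floor of 15, so their spread is gone, and the difference of 1.88 found there gives no separate test. Adamts12 (0.78 ± 0.14, adjusted p = 0.12), Adamts10, Adamts7, Adamts18 and Adamts6 lay between -0.67 and 0.78, and the class median was 0.35. With normexp all of these were positive, with Adamts6 turned from -0.67 to 1.55 and Adamts18 from -0.49 to 1.10. Over all members, 18 genes had several probes that passed the filter on dim signals, though each gene was tested with 1 probe. The probes gave 1 sign for 12 of these genes and both signs for 6 (Adamts3, Adamts7, Adamts10, Adamts12, Adamts14 and Mmp24).

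None of the 4 inhibitors passed in limma, and 1 of them, Timp1, had an unadjusted p below 0.05. Timp1, the inducible inhibitor of most secreted MMPs, had levels of 2.47 and 2.53 in mLN, against 2.18 and 1.90 in pLN (0.46 ± 0.16, SE, n = 2, limma adjusted p = 0.322), and its second probe gave 0.56, while normexp gave 0.17. Timp2, which together with Mmp14 takes part in activating the Mmp2 precursor, had 6.91 and 6.67 in mLN against 6.62 and 6.65 in pLN (0.16 ± 0.15, adjusted p = 0.743), with 0.04 without mLN replicate 1, 0.27 without mLN replicate 2 and -0.19 with normexp. The nodes lay within a log2 unit of each other for both.

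Timp3, the inhibitor that stays bound to the matrix, had 5.73 and 5.18 in mLN against 6.04 and 5.74 in pLN (-0.43 ± 0.25, adjusted p = 0.537), with -0.71 without mLN replicate 1, -0.16 without mLN replicate 2, -0.28 without pLN replicate 1 and -0.81 with normexp. Timp4 had 2.22 and 0.94 in mLN against 3.34 and 2.48 in pLN. The groups did not overlap, since the higher mLN array lay below the lower pLN array, but arrays of a node were far apart. The difference was -1.33 ± 0.54 (SE, n = 2, limma adjusted p = 0.376), with -1.97 without mLN replicate 1 and -0.70 without mLN replicate 2. The median of the 4 inhibitors was -0.14, -0.01 in experiment 1 and -0.27 in experiment 2.

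Set against the inhibitors' median, the class medians lay at -2.93 for the collagenases (-2.74 in experiment 1 and -3.11 in experiment 2), at -0.22 for the gelatinases, at 0.10 for the stromelysins, at 0.24 for the membrane-type MMPs and at 0.08 for the other MMPs. The proteoglycan-cleaving ADAMTS lay at 0.04, the procollagen N-proteinases at 1.09 and the remaining ADAMTS at 0.49. The collagenases thus differed from the inhibitors by more than any other class, in both experiments, on 2 genes. Of these, Mmp8 was not well above background on 1 mLN array, and a filter on all 4 arrays leaves Mmp13 alone. The ranking did not hold with the normexp background, where the collagenase median was 0.08 and that of the inhibitors -0.50. These medians have no test, and a ratio of an enzyme to an inhibitor within an array shows unequal change only.

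Gene by gene, the difference of Mmp13 minus that of Timp1 was -3.80 in experiment 1 and -5.08 in experiment 2. For Mmp3 against Timp1 it was -2.00 and -1.87, and for Mmp9 against Timp1 it was -1.65 and -1.57. The signal of these 3 enzymes relative to Timp1 was thus lower in mLN in both experiments. Against Timp4, which was itself lower in mLN, Mmp3 gave -0.58 and 0.30 and Mmp9 gave -0.23 and 0.60. For both, the sign thus turned between the experiments, while Mmp13 against Timp4 gave -2.39 and -2.91. Mmp16 was higher relative to all 4 inhibitors in both experiments: 1.35 and 1.07 against Timp1, 1.35 and 1.68 against Timp2, 1.96 and 2.25 against Timp3, and 2.77 and 3.24 against Timp4. The activation partners Mmp14 and Timp2 gave -0.11 and -0.24, and Mmp2 against Timp2 gave 0.21 and 0.35.

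Of 61 related genes on the array (activators, other inhibitors, ADAM sheddases, ADAMTS-like proteins, procollagen C-proteinases, other matrix proteases and substrates), 59 were tested. One passed, beside 1.05% of all genes, and their median difference was 0.14. Spock3, testican-3, a proteoglycan reported in human cells to inhibit the activation of pro-MMP2 by membrane-type MMPs, fell in mLN. It had log2 levels of -2.42 and -2.84 in mLN, against 0.49 and 0.13 in pLN. The nodes were far apart in both experiments (-2.91 and -2.96), with a fitted difference of -2.94 ± 0.23 (SE, n = 2), a 7.65-fold lower signal (limma adjusted p = 0.0224). The call held without mLN replicate 1 (0.0460) and ended without mLN replicate 2 (0.0543), pLN replicate 1 (0.146) and pLN replicate 2 (0.145), with no filter on dim probes (0.0712) and with normexp (-1.69, 0.690). Its relative Spock2, testican-2, differed the other way without passing, at 1.66 ± 0.33 (adjusted p = 0.134; 0.0461 under the block). Its other 2 probes gave 1.38 and -0.14, and the mean of its probes 0.97 (adjusted p = 0.258). Of the other inhibitors, Cst6, cystatin E/M, a cysteine protease inhibitor, differed by -1.70 ± 0.29 (adjusted p = 0.107). Reck, a membrane-anchored inhibitor of MMPs, differed by 0.04 ± 0.15.

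Among the activators, Pcsk6, a proprotein convertase, had levels of 2.99 and 1.82 in mLN against 0.69 and 0.43 in pLN (1.85 ± 0.43, limma adjusted p = 0.168; 1.49 from a second probe), while furin (Furin) differed by -0.06 ± 0.16. Of the 9 ADAM sheddases, Adam33 had the highest difference, at 1.08 ± 0.17 (adjusted p = 0.103), but its other 2 probes gave 0.09 and 0.02, and the mean of its probes 0.40 (adjusted p = 0.491). Of the 9 other matrix proteases it was Dpp4, a serine peptidase of the cell surface, at 1.88 ± 0.33 (adjusted p = 0.117, and 0.0330 with the block), with 1.91 and 2.03 from its other probes. Both substrates with ratios of 2-fold or more in each experiment were lower in mLN. Comp, a cartilage matrix protein cut by ADAMTS7 and ADAMTS12, differed by -1.44 ± 0.40 (adjusted p = 0.227), by -0.90 without mLN replicate 2 and by -0.81 with normexp. Bcan, brevican, differed by -3.25 ± 0.92 (adjusted p = 0.233), and by -2.00 without mLN replicate 2. It was not well above background on the mLN array of experiment 2, and was 4.83-fold lower with that array raised to the lowest such signal. Bcan turned to 0.61 with the normexp background. The 7 ADAMTS-like genes lay between -0.03 and 1.09 and the 4 tested procollagen C-proteinases and their enhancers between -0.73 and 0.49.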

How the data were processed

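Agilent Feature Extraction 9.5.3.1 (named in the submitters' processing notes) produced the deposited intensity values. Per the file headers, background was subtracted and spatial and multiplicative trends were removed. The deposited files hold other columns, flags of 0 or 1 for spots well above background, saturated or outlying. The nodes were digested for 30 minutes at 37 degrees and 80 ng of RNA was labelled, per the labels' protocols, and what the digestion does to these genes was not tested. All 4 arrays lay on 1 slide scanned once. A deposited table of intensity values, used as an alternative, equals the processed signal times 1 factor per array (0.862 and 0.867 for mLN, 0.865 and 0.890 for pLN, within 1% for at least 99.8% of probes) with a floor of 15, and its column medians were 172 and 161 for mLN and 169 and 167 for pLN. That scaling was found from the values, which are linear and not centred.

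Control and outlier spots were left out, spots of a probe averaged, log2 taken and each array's 75th percentile subtracted. Probes entered (31883) if both mLN or both pLN arrays were well above background, and each gene was its entering probe with the highest mean (21392 genes). Names came from a table of RefSeq genes (GRCm38.p6) by accession for 24310 probes, by symbol for 6292 and by synonym for 2425. Probe coordinates stayed on mm8. Members went by the files' names.

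Nodes were compared with limma 3.58.1 (R 4.3.3; lmFit and eBayes, total degrees of freedom 4.35), with Benjamini-Hochberg adjustment over all genes and a threshold of 0.05. Values after ± are standard errors unless stated otherwise. The number of arrays limits the precision, and the smallest p of an exact permutation test, with 3 splits, would be 0.333. A bound raises an array that is not well above background to the lowest signal that is. It is not a strict limit, since brighter probes can also fail to be well above background. On the mLN array of experiment 2 the lowest such signal was -6.51, while Mmp25 at -6.09 was not well above background. A ratio of 1 experiment compares single arrays. How many of all genes had groups that did not overlap was not counted.

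Labels number the experiments, which the design text calls independent, so a number marks a shared experiment. Deviations of same-numbered arrays correlated across genes with r = 0.246, and the experiment was also fitted as a block. Other alternatives were normexp background (offset 50), median and quantile scaling, other filters and probe rules, the deposited table, an intensity trend in the variance and leaving out each array. The normexp setting used raw mean spot signals and background medians, so the removal of spatial and multiplicative trends was not part of it. The method was run on simulated data only with differences larger than those of most members, so that run does not cover differences the size of Mmp16's.

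Named genes were members that passed, members 2-fold or more in 1 direction in each experiment, all Timp genes and the largest difference of each class, and related genes that passed or were at least 2-fold (up to 4 per list). The remaining genes are given to complete their class. Members, lists and alternatives were chosen with earlier results of these data known.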

Additional observations from a re-analysis of the deposited data

How the results depend on the processing

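Genes called over the whole array, 224 in the report, numbered 354 with median scaling, 440 with an intensity trend, 44 with no filter on dim probes and 0 with normexp (566 at an unadjusted p below 0.05 in limma), and 0 to 185 with 1 array left out. With the replicate block (the experiment number) 333 genes were called. Members called, 1 in the report, numbered 4 with the replicate block (Mmp13, Mmp8, Mmp16 and Adamts16), 2 with median scaling, 2 with the deposited table (Mmp16, and Adamts19, whose pLN values both sit at that table's floor and so have no spread), 6 with the trend (Mmp13, Mmp3, Mmp9, Adamts9, Mmp23 and Mmp16), 0 with no filter or normexp (14 and 6 at an unadjusted p below 0.05), and 0 to 1 with 1 array left out. Related genes called, 1 in the report, numbered 3 with the block, 0 with no filter or normexp (16 and 5 unadjusted), and 0 to 1 with 1 array left out. The block changed no other call among the named genes. Members at least 2-fold in both experiments numbered 7 with the filter on all 4 arrays and 4 with normexp, against 9.

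Normexp moved the median of all genes by 0.42 and turned the sign of 13 of 39 members. These were Mmp8 (1.33), Mmp28 (0.62), Timp2 (-0.19), Mmp7, Mmp10, Mmp15, Mmp21, Mmp25, Adamts4, Adamts6, Adamts7, Adamts14 and Adamts18. Of the named related genes, Bcan turned (0.61). The cause was not tested. Class medians under normexp were -0.50 for the Timp genes, 0.08 for collagenases, 0.24 for stromelysins, 0.96 for membrane-type MMPs, 1.16 for other MMPs, 0.00 for proteoglycan-cleaving ADAMTS, 0.66 for procollagen N-proteinases and 1.55 for other ADAMTS. With the mean of a gene's probes they were -0.05 for membrane-type MMPs, -0.20 for proteoglycan-cleaving ADAMTS, 0.47 for procollagen N-proteinases and -0.06 for other ADAMTS. The collagenase median was -2.15 with no filter, -3.98 with a filter on all 4 arrays, which leaves Mmp13, and -2.54 in the deposited table, where both mLN values of Mmp8 sit at the floor. The membrane-type median was 0.11 with median or quantile scaling and 0.23 with the filter on all 4 arrays, and that of other ADAMTS was 0.11 with no filter. With 1 array left out, medians ran from -0.33 to 0.06 for the Timp genes, -3.85 to -2.28 for collagenases, -0.48 to -0.23 for gelatinases, -0.12 to 0.04 for stromelysins, 0.09 to 0.29 for membrane-type MMPs, -0.15 to 0.26 for other MMPs, -0.22 to -0.05 for proteoglycan-cleaving ADAMTS, 0.55 to 0.99 for procollagen N-proteinases and 0.24 to 0.46 for other ADAMTS. The 2-fold count was not run with an array left out, which removes an experiment, nor with the block or the trend, which leave the ratios as they are.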
